A study of Mus musculus with 4 samples.

Results

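Neutrophils are the short-lived granulocytes that reach injured tissue ahead of other blood leukocytes, and they are described here from single-cell RNA sequencing of muscle mononuclear cells. A barcode counted as a neutrophil if it held at least 20 unique molecular identifiers (UMIs, each standing for 1 captured transcript) of S100a8 and S100a9 together. It also needed at least 2 of Csf3r, Retnlg, Cxcr2 and Mmp9 together, and no more than 2 of C1qa, C1qb, Cd3e, Cd79a, Lum and Cdh5, which mark macrophages, T cells, B cells, fibroblasts and endothelium. Only barcodes with at least 500 UMIs, at least 300 genes and at most 15% mitochondrial UMIs were considered. The rule found 116 neutrophils among 29773 such barcodes. The animals were mdx5cv mice, which carry a mutation in Dmd, the gene of the muscle protein dystrophin, and wild-type (WT) mice. Both genotypes were 14 weeks old. Quadriceps and diaphragm were taken, and the 4 libraries were mdx5cv quadriceps with 68 neutrophils, WT quadriceps with 5, mdx5cv diaphragm with 25 and WT diaphragm with 18. The cells of all 4 libraries had been cryopreserved and thawed, and each library was loaded to recover 5000 cells. The labels do not say how many mice gave each library. With 1 library per group there is no replicate, so no p-value is given, and every interval below covers counting error only.

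Neutrophils are made in bone marrow, where they fill their granules in stages, and they leave it under control of the receptors Cxcr2 and Cxcr4. In tissue they engulf debris, release proteases and oxidants, and secrete interleukin-1β and chemokines that draw in more neutrophils and monocytes. In dystrophic muscle, where fibres break down and regenerate repeatedly, they are among the infiltrating leukocytes.

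The promoters of 4 genes are shown because those genes define the neutrophils or separate their libraries below. S100a8 and S100a9 encode the subunits of calprotectin, the cytosolic calcium-binding protein that selected the cells. Cxcl2 and Cxcl3 encode chemokines that act on Cxcr2. Each sequence is the RefSeq promoter in build GRCm38.p6 and runs 5′ to 3′ over 300 bases around the annotated gene start. The intervals are chr3:90668821-90669120 on the plus strand, chr3:90695672-90695971 on the minus strand, chr5:90903649-90903948 on the plus strand and chr5:90785851-90786150 on the plus strand. Capitals mark matches on either strand to TTNNGCAA, a form of the C/EBP motif, or to GGGNNTTTCC, a form of the NF-kB motif.
S100a8: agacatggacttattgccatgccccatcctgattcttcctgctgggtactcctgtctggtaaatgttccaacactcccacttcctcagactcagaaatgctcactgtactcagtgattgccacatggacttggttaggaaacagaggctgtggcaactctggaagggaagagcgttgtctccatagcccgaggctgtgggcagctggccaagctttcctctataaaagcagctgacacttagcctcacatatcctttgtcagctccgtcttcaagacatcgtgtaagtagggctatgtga
S100a9: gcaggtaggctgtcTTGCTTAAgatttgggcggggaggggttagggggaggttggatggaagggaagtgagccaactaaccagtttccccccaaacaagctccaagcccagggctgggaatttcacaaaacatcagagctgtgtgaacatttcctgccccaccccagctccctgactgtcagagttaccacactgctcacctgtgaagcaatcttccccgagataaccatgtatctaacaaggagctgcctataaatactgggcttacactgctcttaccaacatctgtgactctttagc
Cxcl2: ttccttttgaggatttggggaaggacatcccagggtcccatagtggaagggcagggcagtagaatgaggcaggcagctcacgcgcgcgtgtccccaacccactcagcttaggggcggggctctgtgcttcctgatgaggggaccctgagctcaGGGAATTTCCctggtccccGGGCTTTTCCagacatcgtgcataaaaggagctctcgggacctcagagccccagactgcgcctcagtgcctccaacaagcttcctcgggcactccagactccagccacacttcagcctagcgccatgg
Cxcl3: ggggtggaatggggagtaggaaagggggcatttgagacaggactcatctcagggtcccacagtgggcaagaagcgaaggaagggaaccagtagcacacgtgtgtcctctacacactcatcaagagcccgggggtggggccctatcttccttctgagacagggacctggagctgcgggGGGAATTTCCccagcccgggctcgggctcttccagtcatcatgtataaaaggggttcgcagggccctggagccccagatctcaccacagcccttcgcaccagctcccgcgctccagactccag
The S100a9 window held 1 C/EBP match, and the S100a8 window held none of either motif. The Cxcl2 window held 2 NF-kB matches and the Cxcl3 window held 1, of the same 10 letters as the first of Cxcl2. Among the 32851 promoters searched, 10.8% held the C/EBP form and 1.63% the NF-kB form, or 12.2% and 1.89% of their 27025 genes. Of the 25 most abundant neutrophil genes, 21 had a promoter in the table, and 5 of these held the C/EBP form (Fth1, Retnlg, S100a9, Slc7a11 and Slpi) and 2 the NF-kB form (Cxcl2 and Mcl1). A match is a run of letters and not a measured binding site.

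The libraries held 18837891 to 62780685 UMIs, the fewest in WT quadriceps and the most in mdx5cv quadriceps. Barcodes passing the quality limits numbered 8638 in mdx5cv quadriceps, 5736 in WT quadriceps, 7596 in mdx5cv diaphragm and 7803 in WT diaphragm, with median depths of 5164.5, 1829.5, 4808.5 and 4289 UMIs in that order. Dmd had 648, 751, 803 and 1340 UMIs over the same barcodes, and 0 in the neutrophils of each library. A tag at the 3′ end does not test a mutation elsewhere in the gene, so these counts do not check the genotype labels. Pairs of libraries shared 5 to 20 quality-passing barcodes. None of these was a neutrophil in both libraries, and 1 neutrophil barcode was also a quality-passing barcode of another library.

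The cells carried the transcripts by which neutrophils are known. All 14 neutrophil markers on the list were detected in each library. Their summed level was 65345 counts per 1000000 neutrophil UMIs (CPM) in mdx5cv quadriceps, 105971 in WT quadriceps, 122112 in mdx5cv diaphragm and 162770 in WT diaphragm. Barcodes chosen as monocytes (Ly6c2 and Plac8 at 4 UMIs or more together and Lyz2 at 5 or more) held 334 to 427 CPM of these markers, and barcodes chosen as macrophages 97.1 to 193.8 CPM. Both kinds were limited to fewer than 20 UMIs of S100a8 and S100a9, which are among the markers. Because the rule set these cells apart, this contrast describes the choice and is not a test. Of the genes of the rule, Retnlg, a resistin-like secreted protein, had 2576 CPM in mdx5cv quadriceps, 8069 in WT quadriceps, 7219 in mdx5cv diaphragm and 9715 in WT diaphragm. Csf3r, the receptor of the granulocyte growth factor G-CSF, had 1905 CPM in mdx5cv quadriceps, 1479 in WT quadriceps, 3158 in mdx5cv diaphragm and 2234 in WT diaphragm. Retnlg was lowest in mdx5cv quadriceps and Csf3r in WT quadriceps. Ly6g, which encodes the surface antigen commonly used to sort mouse neutrophils, had only 3 UMIs in mdx5cv quadriceps, 1 in WT quadriceps, 3 in mdx5cv diaphragm and 1 in WT diaphragm.

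Transcripts of most other blood lineages were scarce, in part because of the rule. It capped C1qa and C1qb of the macrophage markers, Lum of the fibroblast markers and Cdh5 of the endothelial markers. Low sums of those markers therefore partly describe the choice and are not a test. All 8 mast cell and basophil markers and all 5 erythroid markers were at 0 in each library, as were 6 of 8 eosinophil markers (Epx, Prg2, Ear1, Ear6, Ccr3 and Il5ra). Summed macrophage markers reached 957 CPM in mdx5cv quadriceps, 0 in WT quadriceps, 419 in mdx5cv diaphragm and 312 in WT diaphragm, against 13996.5 to 19352 CPM in barcodes chosen as macrophages by C1qa, C1qb and C1qc. The 7 dendritic cell markers summed to 2501 CPM in mdx5cv quadriceps (5 detected), 134.5 in WT quadriceps (1 detected), 1225 in mdx5cv diaphragm (4 detected) and 0 in WT diaphragm. The 6 monocyte markers summed to 436 CPM in mdx5cv quadriceps, 0 in WT quadriceps, 64.5 in mdx5cv diaphragm and 208 in WT diaphragm. Summed fibroblast markers were highest in WT diaphragm, at 1039 CPM. Endothelial markers were highest in WT quadriceps, at 7531 CPM, where 1 cell held 42 of the 44 Fabp4 UMIs.

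The S100a8 and S100a9 sum chose the cells, and it was well clear of its limit in most of them. Its lowest, median and highest values were 20, 81.5 and 273 UMIs in mdx5cv quadriceps, 46, 135 and 207 in WT quadriceps, 23, 106 and 357 in mdx5cv diaphragm, and 26, 96.5 and 706 in WT diaphragm. Just inside the limit, with 20 to 24 UMIs, lay 6 cells of mdx5cv quadriceps and 1 of mdx5cv diaphragm. Just outside, with 15 to 19 UMIs, lay 4 barcodes of mdx5cv quadriceps, 2 of mdx5cv diaphragm and 1 of WT diaphragm. The limit on other lineages' genes removed 9 barcodes from mdx5cv quadriceps and 3 from mdx5cv diaphragm. Fibroblast-lineage barcodes, which should lack both genes, held few such transcripts. In mdx5cv quadriceps, WT quadriceps, mdx5cv diaphragm and WT diaphragm, 1.12%, 0.272%, 0.442% and 0.475% of them held any S100a8 or S100a9 UMI. There were at most 2 in a barcode, at median depths of 5131, 3463.5, 4812 and 4469 UMIs. These barcodes were chosen with no Ptprc UMI and fewer than 20 S100a8 and S100a9 UMIs, so any with more were left out beforehand.

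Neutrophils were a small minority in each muscle and were most frequent in mdx5cv quadriceps. They made up 0.787% (exact 95% interval 0.612 to 0.997) of quality-passing barcodes in mdx5cv quadriceps and 0.0872% (0.0283 to 0.203) in WT quadriceps, a ratio of 9.03 (3.69 to 28.7). In diaphragm they made up 0.329% (0.213 to 0.485) in mdx5cv and 0.231% (0.137 to 0.364) in WT, a ratio of 1.43 (0.748 to 2.78). The interval of the diaphragm ratio includes 1, and the quadriceps interval lies above it. Between the mdx5cv muscles the share in diaphragm was 0.418 times that in quadriceps (0.253 to 0.670).

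Set against macrophages the order differed. There were 1.83 neutrophils per 100 macrophage-rule barcodes in mdx5cv quadriceps and 2.44 in WT quadriceps, a ratio of 0.748 (0.305 to 2.38). In diaphragm there were 1.53 in mdx5cv and 11.8 in WT, a ratio of 0.130 (0.0682 to 0.253). Macrophage-rule barcodes numbered 3725, 205, 1633 and 153 in mdx5cv quadriceps, WT quadriceps, mdx5cv diaphragm and WT diaphragm, so neutrophils formed a larger part of the few myeloid cells of WT diaphragm. The monocyte-rule barcodes of that library numbered 11, against its 18 neutrophils. These are shares of recovered barcodes and depend on which cells survived isolation, freezing and thawing.

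**Figure D1:**
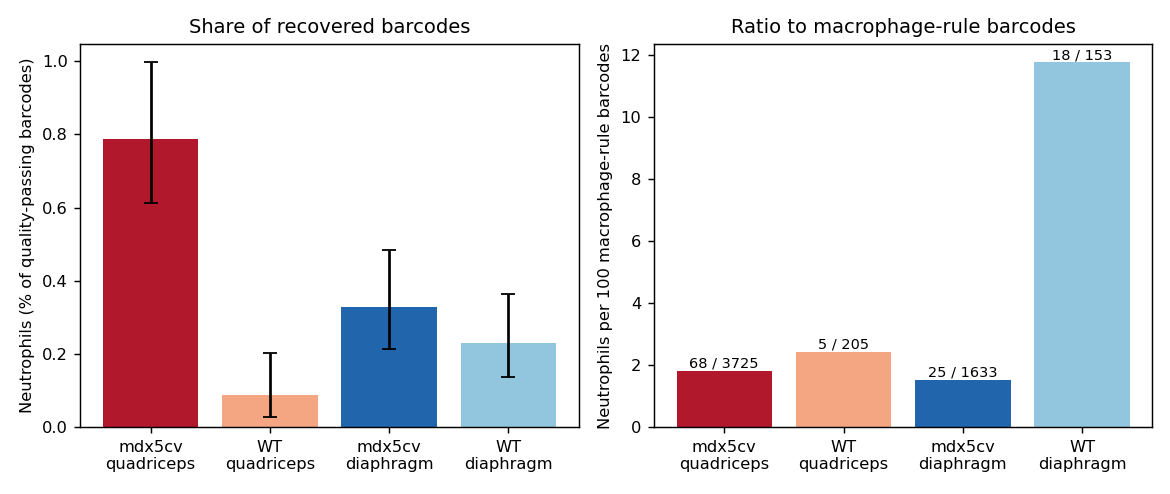
Left, neutrophils as a percentage of quality-passing barcodes in each library, with exact 95% binomial intervals. Right, neutrophils per 100 macrophage-rule barcodes, with both numbers above each bar. The share is highest in mdx5cv quadriceps at 0.787%, while the ratio to macrophage-rule barcodes is highest in WT diaphragm at 11.8.

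Neutrophils held little RNA in each library. Their median depth was 1149.5 UMIs in mdx5cv quadriceps, 1098 in WT quadriceps, 1064 in mdx5cv diaphragm and 1056.5 in WT diaphragm, with medians of 549.5, 550, 535 and 480 genes. The median mitochondrial share was 0.572%, 0.546%, 0.472% and 0.331%, against 5.54%, 5.87%, 4.99% and 4.43% over all quality-passing barcodes. The 4 libraries lay close together in all these measures.

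A few cells stood apart by their RNA content, and they bear on every sum below. There were 10 neutrophils above 2000 UMIs, 7 in mdx5cv quadriceps and 1 in each other library, and they held 41.1% of neutrophil UMIs in mdx5cv quadriceps, 36.6% in WT quadriceps, 15.6% in mdx5cv diaphragm and 10.9% in WT diaphragm. At least 5 UMIs of Cd74, the invariant chain of MHC class II, were present in 6 of these 10 cells and in 0 of the 106 smaller ones. The largest, of 22141 UMIs in mdx5cv quadriceps, held 175 of all 220 S100a4 UMIs. A cell of 4852 UMIs in mdx5cv diaphragm held 127 UMIs of the lymphocyte chemokine Ccl5, and the WT quadriceps cell of 2725 UMIs held the 42 Fabp4 UMIs. The WT diaphragm cell, of 2103 UMIs, differed from these: it held 337 S100a8 and 369 S100a9 UMIs and no Cd74. No doublet caller was run on so few cells. Whether the large cells are 2 cells in 1 droplet was not tested, so each comparison is given with and without them.

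**Figure D2:**
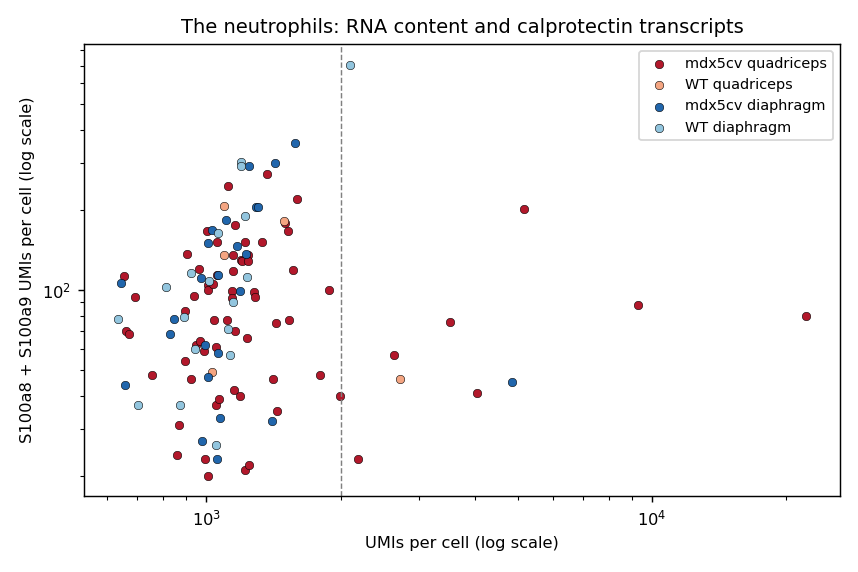
Each point is 1 neutrophil, placed by its UMIs and by its S100a8 and S100a9 UMIs, both on log axes and coloured by library, with a dashed line at 2000 UMIs. The WT diaphragm cell with 706 UMIs of these genes lies above all others, and the other 9 cells right of the line lie within the range of the smaller cells.

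The 25 most abundant neutrophil transcripts included those of calprotectin (S100a8 and S100a9), interleukin-1β (Il1b), the chemokine Cxcl2, actins (Actb and Actg1) and ferritin (Fth1 and Ftl1). S100a8 had 27734 CPM in mdx5cv quadriceps, 47741 in WT quadriceps, 48148 in mdx5cv diaphragm and 67539.5 in WT diaphragm. S100a9 had 25418 CPM in mdx5cv quadriceps, 35503 in WT quadriceps, 51565 in mdx5cv diaphragm and 69202 in WT diaphragm. The neutrophils held 77.8%, 99.2%, 83.9% and 94.2% of all S100a8 UMIs of quality-passing barcodes in mdx5cv quadriceps, WT quadriceps, mdx5cv diaphragm and WT diaphragm. Both calprotectin genes, which chose the cells, were lowest in mdx5cv quadriceps, where the cells above 2000 UMIs held the largest share of UMIs. Without these cells S100a8 had 42674 CPM in mdx5cv quadriceps, 70049 in WT quadriceps, 56271 in mdx5cv diaphragm and 56168 in WT diaphragm, a narrower range. Il1b, which encodes interleukin-1β, had 10364 CPM in mdx5cv quadriceps, 9952 in WT quadriceps, 13600.2 in mdx5cv diaphragm and 11793 in WT diaphragm. It was found in 66 of 68, 5 of 5, 25 of 25 and 18 of 18 cells, so it was a shared trait of neutrophils in both genotypes. Cebpb, a transcription factor of myeloid genes, had 7913 CPM in mdx5cv quadriceps, 6455 in WT quadriceps, 9282 in mdx5cv diaphragm and 12469 in WT diaphragm, and was found in all 116 cells. Slc7a11, the cystine importer that feeds glutathione synthesis, had 2744 CPM in mdx5cv quadriceps, 2017 in WT quadriceps, 4899 in mdx5cv diaphragm and 5923 in WT diaphragm. Mcl1, the anti-apoptotic protein on which neutrophil survival depends, had 2643 CPM in mdx5cv quadriceps, 2824 in WT quadriceps, 3771 in mdx5cv diaphragm and 3429 in WT diaphragm.

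**Figure D3:**
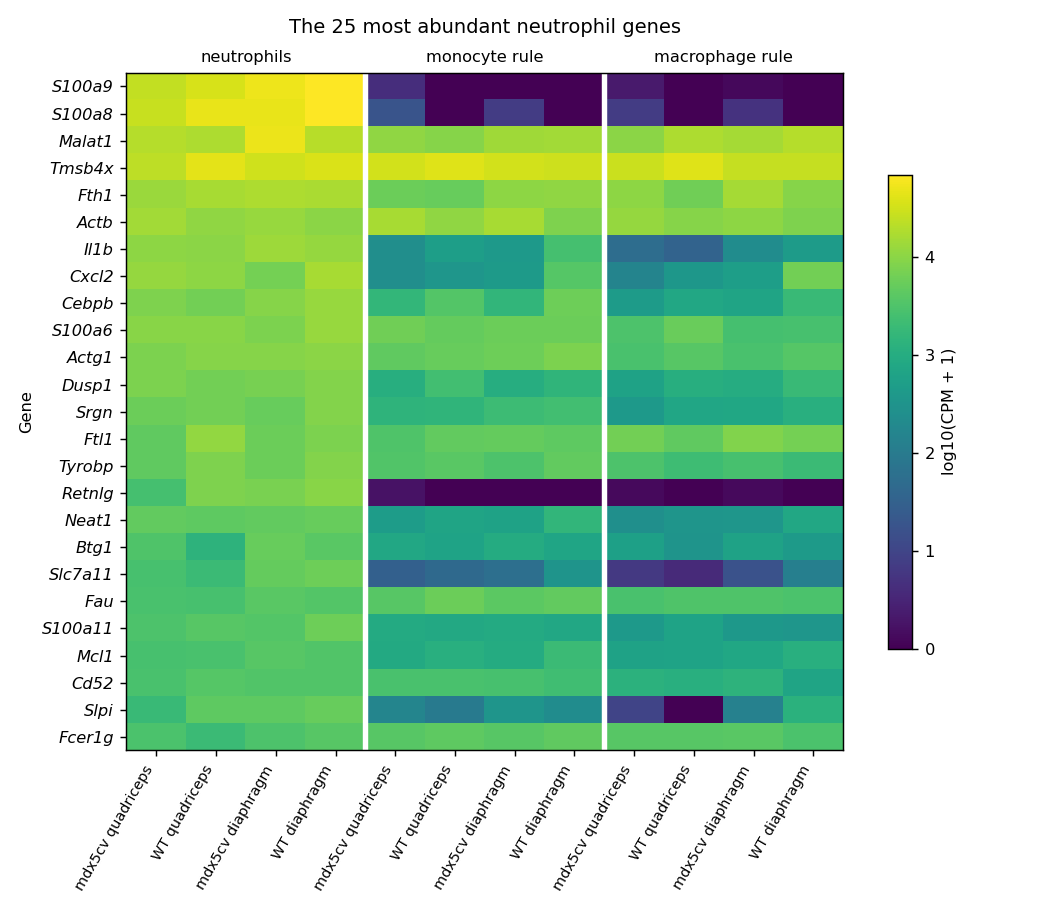
Expression of the 25 most abundant neutrophil genes as log10(CPM + 1), with a column per library for neutrophils, monocyte-rule barcodes and macrophage-rule barcodes. S100a8, S100a9, Retnlg, Il1b, Slc7a11 and Slpi are higher in the neutrophil columns of all 4 libraries, whereas Tmsb4x, Fau and Fcer1g are nearly level across the 3 classes.

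Genes of the earliest granules were mostly undetected, and genes of late granules were present. Of the 11 listed genes of azurophil granules, the granules that form first, 7 were at 0 in all neutrophils, among them Mpo, Elane, Prtn3 and Ctsg, which encode myeloperoxidase and the neutrophil serine proteases. Specific granule genes Ltf and Camp, which encode lactoferrin and the cathelicidin peptide, were also at 0. Among later granule products, Mmp9, the gelatinase used in the rule, had 1158 CPM in mdx5cv quadriceps, 1076 in WT quadriceps, 1418 in mdx5cv diaphragm and 779 in WT diaphragm. Slpi, a secreted protease inhibitor, had 1871 CPM in mdx5cv quadriceps, 4303 in WT quadriceps, 4351 in mdx5cv diaphragm and 5299 in WT diaphragm. Lcn2, the iron-sequestering lipocalin, had 462 CPM in mdx5cv quadriceps, 672 in WT quadriceps, 806 in mdx5cv diaphragm and 779 in WT diaphragm. Lyz2, lysozyme, had 2828 CPM in mdx5cv quadriceps, 3228 in WT quadriceps, 3126 in mdx5cv diaphragm and 4052 in WT diaphragm. A count of 0 is not absence at this depth, since it allows up to 25.2 CPM in mdx5cv quadriceps, 403 in WT quadriceps, 96.7 in mdx5cv diaphragm and 156 in WT diaphragm.

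Surface receptors were detected in each library. Cxcr2, the receptor of Cxcl2 and Cxcl3 and part of the rule, had 453 CPM in mdx5cv quadriceps, 403 in WT quadriceps, 516 in mdx5cv diaphragm and 519.5 in WT diaphragm. Clec4e, a receptor for damaged cells and fungi, had 2148 CPM in mdx5cv quadriceps, 2286 in WT quadriceps, 2514 in mdx5cv diaphragm and 2234 in WT diaphragm. Both were found in all 4 libraries. Hdc, which makes histamine, had 2224 CPM in mdx5cv quadriceps, 2555 in WT quadriceps, 3158 in mdx5cv diaphragm and 4416 in WT diaphragm. Siglecf, which marks a tissue-adapted neutrophil state in mouse, had 2 UMIs in mdx5cv quadriceps, 1 in WT quadriceps and 0 in both diaphragms.

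The comparison of mdx5cv with WT neutrophils pooled both muscles because neither WT library held 20 cells. A gene was called higher or lower when its CPM ratio was 2-fold or more and its exact 95% interval excluded 1, given at least 10 UMIs over both groups. Among 2385 genes, 125 (5.24%) were called higher and 81 (3.4%) lower in mdx5cv, with a median log2 ratio of 0.41 over all genes tested. Without the cells above 2000 UMIs, 58 of 1627 genes (3.56%) were higher and 62 (3.81%) lower, with a median of 0.22. There were 32 genes called higher and 39 called lower both with and without those cells. The pools differ in muscle too: 68 of the 93 mdx5cv cells came from quadriceps and 18 of the 23 WT cells from diaphragm, so values of each library are given. Of the 32, 26 had both mdx5cv libraries above both WT libraries, against 626 of all 2385 genes tested (26.2%). Of the 39, 24 had both mdx5cv libraries below both WT libraries, against 284 (11.9%). The pools that called these genes hold the same cells, so the choice favours such agreement and it is not a test. Many WT quadriceps values rest on few UMIs, with 0 for Actr2 and Lyst among the higher genes.

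Nfkbia was higher in mdx5cv neutrophils of both muscles. Nfkbia, the inhibitor that NF-kB induces against itself, had 1972 CPM in mdx5cv quadriceps, 807 in WT quadriceps, 2417 in mdx5cv diaphragm and 935 in WT diaphragm. Both mdx5cv libraries lay above both WT libraries, as for 626 of the 2385 genes (26.2%), by 2.44-fold (1.11 to 6.73) in quadriceps and 2.58-fold (1.53 to 4.595) in diaphragm. Pooled, it was 2.29-fold (1.51 to 3.64) higher with all cells and 3.08-fold (1.96 to 5.13) higher without the large ones. Nr4a1, an orphan nuclear receptor induced within minutes of stimulation, had 730.1 CPM in mdx5cv quadriceps, 134 in WT quadriceps, 483 in mdx5cv diaphragm and 259.8 in WT diaphragm. Ier3, another immediate-early gene, had 738 CPM in mdx5cv quadriceps, 269 in WT quadriceps, 773 in mdx5cv diaphragm and 364 in WT diaphragm. Both mdx5cv libraries were the higher ones, by 3.02-fold (1.34 to 8.42) for Nr4a1 and 2.21-fold (1.12 to 4.96) for Ier3 when pooled, but within each muscle the interval of both genes included 1. Of 23 listed immediate-early and heat shock genes, 4 were called higher and 0 lower with all cells, against 5.24% and 3.4% of all genes, and 4 higher and 1 lower of 21 without the large cells, against 3.56% and 3.81%. The list's median log2 ratio was 0.38, close to that of all genes tested.

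Cxcr4 and Il1r2 also separated the genotypes. Cxcr4, the receptor for Cxcl12 that retains neutrophils in bone marrow and marks aged ones, had 1863 CPM in mdx5cv quadriceps, 1076 in WT quadriceps, 1386 in mdx5cv diaphragm and 519.5 in WT diaphragm. It was found in 52 of 68 cells in mdx5cv quadriceps, 4 of 5 cells in WT quadriceps, 18 of 25 cells in mdx5cv diaphragm and 8 of 18 cells in WT diaphragm. The pooled ratio was 2.62-fold (1.62 to 4.48), and it was 1.73-fold (0.864 to 4.06) in quadriceps, an interval that includes 1, and 2.67-fold (1.32 to 5.95) in diaphragm. Il1r2, the decoy receptor that binds interleukin-1 without signalling, ran the other way, with 1267 CPM in mdx5cv quadriceps, 4841 in WT quadriceps, 1837 in mdx5cv diaphragm and 3948 in WT diaphragm. Both mdx5cv libraries were below both WT libraries, as for 284 of the 2385 genes (11.9%), by 3.82-fold (2.58 to 5.53) in quadriceps and 2.15-fold (1.505 to 3.09) in diaphragm. In WT quadriceps 23 of the 36 Il1r2 UMIs came from 1 cell, whereas in WT diaphragm the most from a cell was 14 of 76. Il1b itself did not separate the genotypes, with a ratio of 0.978-fold (0.864 to 1.11).

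Lysosomal genes Ctsd, Ctsb and Lyst were among the 32 genes called higher both ways, while Lamp2 and Cd63 were among the 39 called lower. Ctsd, the lysosomal protease cathepsin D, had 797 CPM in mdx5cv quadriceps, 269 in WT quadriceps, 1064 in mdx5cv diaphragm and 468 in WT diaphragm. Ctsb, cathepsin B, had 873 CPM in mdx5cv quadriceps, 134 in WT quadriceps, 483 in mdx5cv diaphragm and 51.95 in WT diaphragm. Lyst, which regulates the size of lysosomes and granules, had 411 CPM in mdx5cv quadriceps, 0 in WT quadriceps, 548 in mdx5cv diaphragm and 104 in WT diaphragm. Ctsd, Ctsb and Lyst were higher in both mdx5cv libraries, by 2.07-fold (1.12 to 4.25), 10.6-fold (2.86 to 88.3) and 5.86-fold (1.56 to 49.4) when pooled. Without the large cells Ctsb had 313 CPM in mdx5cv quadriceps, 0 in WT quadriceps, 497 in mdx5cv diaphragm and 58.3 in WT diaphragm. Lamp2, a lysosomal membrane protein, had 294 CPM in mdx5cv quadriceps, 403 in WT quadriceps, 387 in mdx5cv diaphragm and 831 in WT diaphragm. Cstdc4, a cystatin-domain gene of the stefin cluster, had 931 CPM in mdx5cv quadriceps, 0 in WT quadriceps, 773 in mdx5cv diaphragm and 156 in WT diaphragm, or 7.99-fold (2.68 to 39.3) higher in the pool, with its UMIs held by 15, 0, 5 and 3 cells. Reads of such near-identical clustered genes may be split between copies, so its level is uncertain. Wfdc17, a small secreted protein, had 1041 CPM in mdx5cv quadriceps, 0 in WT quadriceps, 1257 in mdx5cv diaphragm and 259.8 in WT diaphragm. It was 5.79-fold (2.43 to 18.1) higher, but neutrophils held only 0.225%, 0%, 0.155% and 0.145% of the libraries' Wfdc17 UMIs in the same order. Free RNA was estimated at 1.02% of its UMIs in mdx5cv neutrophils without the large cells. Its log2 ratio was 2.13 to 3.14 over 15 alternatives, called in all, including that with estimated free RNA subtracted.

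The list of 36 cytokines, chemokines and their regulators held 25 genes with enough UMIs. Of these, 6 were called higher and 2 lower in mdx5cv, against 5.24% and 3.4% of all genes. Without the large cells 8 of 23 were higher and 2 lower, against 3.56% and 3.81% of all genes. The median log2 ratio was 0.45 with all cells, against 0.41 over all genes. The 5 genes called higher both ways were Nfkbia and Csf1, higher in both muscles, and Ccl4, Cxcl3 and Osm, which with all cells were higher in mdx5cv in quadriceps and lower in diaphragm. For Osm, the diaphragm order turned without the large cells, to 344 CPM in mdx5cv and 58.3 in WT, and its quadriceps ratio was 3.31-fold (0.893 to 27.7), an interval that includes 1. Csf1, the growth factor of macrophages, had 671 CPM in mdx5cv quadriceps, 269 in WT quadriceps, 226 in mdx5cv diaphragm and 104 in WT diaphragm. The ratio was 3.86-fold (1.46 to 14.5) in the pool and 2.496-fold (0.669 to 20.96) in quadriceps, an interval that includes 1, from 80 UMIs in mdx5cv quadriceps, 2 in WT quadriceps, 7 in mdx5cv diaphragm and 2 in WT diaphragm. The quadriceps genes are described with the muscle comparison below.

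Anxa11, Pilrb2, Gmfg and Jaml were called lower in the mdx5cv pool both ways and were lower in mdx5cv in both muscles. Anxa11, a calcium-dependent membrane-binding protein, had 126 CPM in mdx5cv quadriceps, 403 in WT quadriceps, 96.7 in mdx5cv diaphragm and 675 in WT diaphragm. It was 5.003-fold (2.39 to 10.4) lower in the pool, and in quadriceps 3.21-fold (0.595 to 11.3) lower from 3 WT UMIs, an interval that includes 1. Pilrb2, of the paired immunoglobulin-like receptors, had 58.7 CPM in mdx5cv quadriceps, 403 in WT quadriceps, 96.7 in mdx5cv diaphragm and 468 in WT diaphragm. It was 6.75-fold (2.67 to 17.5) lower, from 10 UMIs in mdx5cv and 12 in WT. Gmfg, a regulator of actin branching in leukocytes, had 688 CPM in mdx5cv quadriceps, 1210.3 in WT quadriceps, 1031 in mdx5cv diaphragm and 2234 in WT diaphragm, and Jaml, an adhesion molecule used in transmigration, had 227 CPM in mdx5cv quadriceps, 538 in WT quadriceps, 387 in mdx5cv diaphragm and 675 in WT diaphragm. Ifitm2, an interferon-induced membrane protein, had 1771 CPM in mdx5cv quadriceps, 3765 in WT quadriceps, 2095 in mdx5cv diaphragm and 4052 in WT diaphragm, or 2.16-fold (1.71 to 2.71) lower, and was not called without the large cells. Utrn, which encodes the dystrophin relative utrophin, was called lower from only 5 UMIs in mdx5cv and 7 in WT.

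Some of the steepest ratios rested on the large cells. The genes of highest rank in mdx5cv with all cells were S100a4, Cd74, Ccl5, S100a10, Crip1, Npm1, Lgals1, H2-Eb1, Ccl2, Ctsb, Ctss and H2-Ab1. S100a4 had 220 UMIs in mdx5cv and 0 in WT, and Cd74 had 1712 CPM in mdx5cv quadriceps, 134 in WT quadriceps, 870.2 in mdx5cv diaphragm and 0 in WT diaphragm. Without the large cells, Cd74 had 299 CPM in mdx5cv quadriceps, 212 in WT quadriceps, 344 in mdx5cv diaphragm and 0 in WT diaphragm, and the ratio was 6.804-fold (1.13 to 278), against 41.04-fold (7.29 to 1628) with them. Of that set only Cd74 and Ctsb were called without the large cells. Antigen presentation genes were called higher in 4 of 13 with all cells and in 1 of 8 without the large ones, against 5.24% and 3.56% of all genes. Dcn, a fibroblast gene, and Sparc were lower in mdx5cv both ways. Dcn had 168 CPM in mdx5cv quadriceps, 134 in WT quadriceps, 0 in mdx5cv diaphragm and 468 in WT diaphragm, and the summed fibroblast markers moved the same way, at 352, 134, 290 and 1039 CPM. Their part in these results was not tested.

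**Figure D4:**
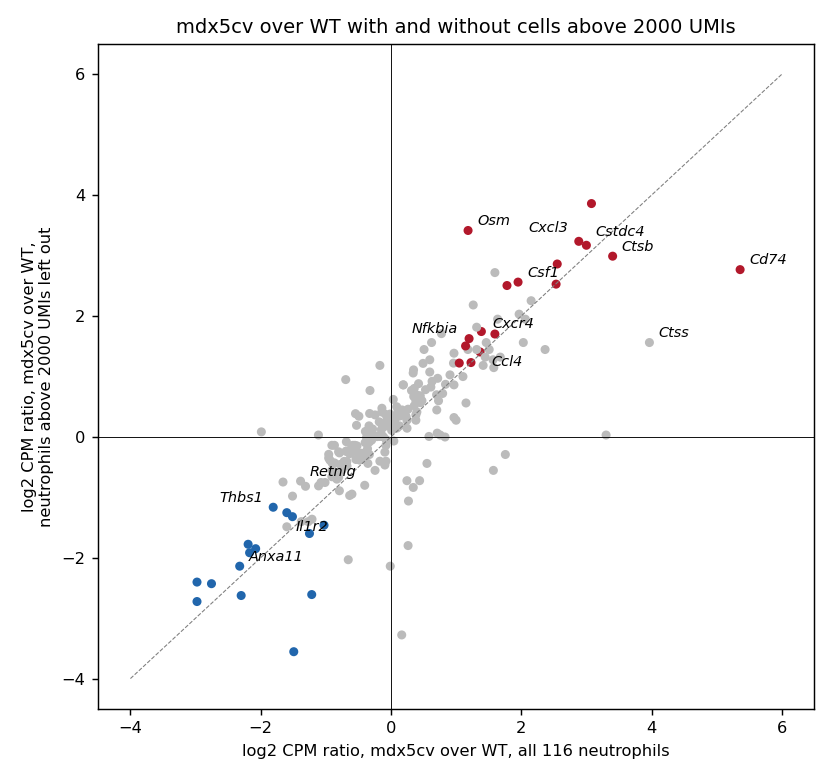
The log2 CPM ratio of mdx5cv over WT neutrophils with all 116 cells (horizontal) and with the 10 cells above 2000 UMIs left out (vertical), for 232 listed or named genes with UMIs in both genotypes. Red genes were called higher both ways and blue genes lower both ways, and the dashed line marks equality. Nfkbia, Cxcr4, Osm and Il1r2 keep their direction, whereas Cd74 and Ctss lie far below the line.

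Several granule genes were lower in mdx5cv neutrophils with all cells, and of these Anxa1 and Cd63 were also called without the large ones, neither in the same direction in both muscles. With all cells, 4 of 12 tested specific and gelatinase granule genes (Mmp8, Anxa1, Wfdc21 and Slpi) were called lower in mdx5cv and 0 higher, with a median log2 ratio of -0.57. Over all genes 3.4% were lower and 5.24% higher, with a median of 0.41. Without the large cells, 1 of 11 was lower (Anxa1) and 1 higher (Mmp9), with a median of -0.45. Over all genes these were 3.81%, 3.56% and 0.22. Anxa1, annexin A1, which limits leukocyte recruitment, had 436 CPM in mdx5cv quadriceps, 269 in WT quadriceps, 548 in mdx5cv diaphragm and 1195 in WT diaphragm, so it was higher in mdx5cv in quadriceps. Retnlg was 2.62-fold (2.24 to 3.05) lower with all cells and 1.66-fold (1.399 to 1.97) lower without the large ones, which is below the 2-fold limit. It is a gene of the rule, and 54 of its 60 UMIs in WT quadriceps came from 1 cell. Azurophil granule genes were called lower in 1 of 4 and higher in 0 of 4, against 3.4% and 5.24% of all genes. The one, Cd63, a tetraspanin of granule and lysosome membranes, had 302 CPM in mdx5cv quadriceps, 134 in WT quadriceps, 322 in mdx5cv diaphragm and 935 in WT diaphragm.

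The other lists are given by their counts, to be read against 5.24% higher and 3.4% lower over all genes. Of 6 tested NADPH oxidase genes none was called with all cells, and Ncf1 alone was called higher of 5 without the large ones. Of 16 survival and apoptosis genes and 18 transcription factors none was called. Of 17 interferon-induced genes 0 were higher and 2 lower (Ifitm2 and Ifitm6). Without the large cells 1 of 16 was higher (Isg15) and 0 were lower, and the list's median log2 ratio was 1.38 against 0.22 over all genes. Its summed level was then 10358.5 CPM in mdx5cv quadriceps, 5731 in WT quadriceps (27 UMIs), 9245 in mdx5cv diaphragm and 9041 in WT diaphragm. With all cells these were 7527, 9683, 8540 and 9923 CPM, lower in both mdx5cv libraries. Of 19 chemotactic and adhesion receptors Cxcr4 was higher and Pilra lower. Of 22 genes tied to the SiglecF tissue state 4 were higher (Xbp1, Ctsb, Ctsd and Lgals3) and 1 lower (Cd63). Without the large cells 5 of 20 were higher (Xbp1, Ctsb, Ctsd, Tnf and Ptafr), against 3.56% of all genes, and 1 lower (Cd63). Of 17 hypoxia and glycolysis genes 1 was higher (Gapdh) and 1 lower (Slc2a3). Of 25 pattern, Fc and inhibitory receptors Clec4n was higher and Fcgr4 lower. Of 8 S100 and stefin genes 3 were higher (S100a10, S100a4 and Cstdc4), and without the large cells Cstdc4 alone of 6. Of 6 chromatin genes tied to extracellular traps Hmgn2 was lower, and of 6 cell cycle genes H2afz was higher. Intervals were wide with 23 WT cells, so a gene not called may still differ.

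The neutrophils of mdx5cv diaphragm, the main muscle of breathing, were then set against those of mdx5cv quadriceps, a limb muscle. Among 2152 genes, 97 (4.51%) were called higher and 156 (7.25%) lower in diaphragm, with a median log2 ratio of -0.17. Without the cells above 2000 UMIs, 43 of 1407 (3.06%) were higher and 42 (2.99%) lower, with a median of -0.05. Genes called both with and without those cells numbered 30 higher and 26 lower. Of the lower ones, 6 are mitochondrially encoded: mt-Co3, mt-Cytb, mt-Nd1, mt-Nd2, mt-Nd3 and mt-Nd4. Neutrophils above 5% mitochondrial UMIs numbered 1 of 25 in mdx5cv diaphragm and 12 of 68 in mdx5cv quadriceps.

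Several chemokines and cytokines were lower in mdx5cv diaphragm than in mdx5cv quadriceps. Ccl3 and Ccl4 encode chemokines for monocytes and lymphocytes. Ccl3 had 870.2 CPM in mdx5cv diaphragm and 2869.9 in mdx5cv quadriceps, against 1714 in WT diaphragm and 269 in WT quadriceps. The difference between the mdx5cv muscles was 3.298-fold (2.23 to 5.08) lower in diaphragm, and WT diaphragm lay between them. Ccl4 had 709 CPM in mdx5cv diaphragm and 2375 in mdx5cv quadriceps, against 1091 in WT diaphragm and 0 in WT quadriceps, 3.35-fold (2.17 to 5.43) lower in mdx5cv diaphragm. Cxcl3 had 64.5 CPM in mdx5cv diaphragm and 679.7 in mdx5cv quadriceps, against 104 in WT diaphragm and 0 in WT quadriceps, 10.5-fold (2.83 to 88.6) lower, but only 8 of 68 cells in mdx5cv quadriceps held it and 1 cell gave 26 of the 81 UMIs. Osm, oncostatin M, a cytokine of the interleukin-6 family, had 290.1 CPM in mdx5cv diaphragm and 889.5 in mdx5cv quadriceps, against 364 in WT diaphragm and 269 in WT quadriceps, 3.07-fold (1.56 to 6.89) lower. Csf1 was 2.98-fold (1.38 to 7.64) lower. Of 25 listed cytokine and chemokine genes tested, 7 were called lower and 3 higher in mdx5cv diaphragm, against 7.25% and 4.51% of all genes. Without the large cells 7 of 23 were lower and 2 higher, against 2.99% and 3.06%. Cxcl2 joined the lower genes without the large cells, at 2.46-fold (2.13 to 2.86) lower, and had 6865 CPM in mdx5cv diaphragm and 12025 in mdx5cv quadriceps, against 15898 in WT diaphragm and 10489.5 in WT quadriceps with all cells. mdx5cv diaphragm was thus the lowest library for Cxcl2 and WT diaphragm the highest. In quadriceps, the mdx5cv ratio to WT was 10.7-fold (2.93 to 88.5) for Ccl3 and at least 5.89-fold for Ccl4, whose WT side had 2 and 0 UMIs from 5 cells. In diaphragm it was 0.508-fold (0.294 to 0.8704) and 0.6499-fold (0.341 to 1.24).

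Zfp36, which encodes tristetraprolin, a protein that destabilises cytokine transcripts, moved with them. It had 1160.2 CPM in mdx5cv diaphragm and 3248 in mdx5cv quadriceps, against 2805 in WT diaphragm and 1614 in WT quadriceps, 2.799-fold (1.99 to 4.06) lower in mdx5cv diaphragm. Tnfaip3, which encodes A20, another brake on NF-kB, ran the other way, with 548 CPM in mdx5cv diaphragm and 218 in mdx5cv quadriceps, against 259.8 in WT diaphragm and 0 in WT quadriceps, 2.51-fold (1.28 to 4.81) higher. Il1a, which encodes interleukin-1α, was also higher, with 8 UMIs in 3 cells of mdx5cv diaphragm and 5 UMIs in 1 cell of mdx5cv quadriceps. Tsc22d3, a glucocorticoid-induced regulator, was 3.31-fold (1.86 to 5.86) higher.

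Some granule genes and the stefin gene Stfa2l1 were higher in mdx5cv diaphragm. Mmp8, neutrophil collagenase, had 548 CPM in mdx5cv diaphragm and 143 in mdx5cv quadriceps, against 571 in WT diaphragm and 538 in WT quadriceps. The mdx5cv quadriceps library was the low one, and the other 3 lay close together. Wfdc21 had 967 CPM in mdx5cv diaphragm and 302 in mdx5cv quadriceps, against 1351 in WT diaphragm and 1479 in WT quadriceps, again lowest in mdx5cv quadriceps. Hp, haptoglobin, which binds free haemoglobin, had 838 CPM in mdx5cv diaphragm and 327 in mdx5cv quadriceps, against 727 in WT diaphragm and 538 in WT quadriceps. Stfa2l1, a stefin that inhibits cysteine proteases, had 1128 CPM in mdx5cv diaphragm and 319 in mdx5cv quadriceps, against 935 in WT diaphragm and 403 in WT quadriceps. The ratios of mdx5cv diaphragm over mdx5cv quadriceps were 3.84-fold (1.84 to 8.003) for Mmp8, 3.200-fold (1.904 to 5.34) for Wfdc21, 2.56-fold (1.496 to 4.31) for Hp and 3.54-fold (2.17 to 5.75) for Stfa2l1, and all 4 were called without the large cells too. Of 12 tested specific and gelatinase granule genes 4 were higher and 0 lower, with a median log2 ratio of 0.55, and without the large cells 4 of 10 were higher, with a median of 0.80. Over all genes these medians were -0.17 and -0.05. The shares of all genes called were 4.51% higher and 7.25% lower with all cells, and 3.06% and 2.99% without the large ones. Among other lists 0 of 6 NADPH oxidase and 0 of 17 interferon-induced genes were called. Survival genes had 1 higher and 1 lower of 15. Antigen presentation had 3 higher and 2 lower of 13, and 0 of 5 without the large cells. S100 and stefin genes had 1 higher (Stfa2l1) and 3 lower (S100a10, S100a4 and Cstb) of 8, and 1 higher of 6 without large cells. SiglecF state genes had 3 higher and 3 lower of 22, and 1 and 1 of 20. Immediate-early and heat shock genes had 1 and 3 of 23, and 0 and 3 of 20. Hypoxia and glycolysis genes had 1 and 2 of 17, and 1 and 1 of 14. Slpi was 2.32-fold (1.86 to 2.89) higher with all cells and 1.71-fold (1.36 to 2.13) without the large ones, which is not called.

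Again the largest ratios with all cells followed single large cells. Ccl5 was 488-fold (85.98 to 19415) higher in mdx5cv diaphragm, with all 127 UMIs there in 1 cell. H2-M2, Tbc1d4, Zmynd15, Fscn1, Mfge8, Epsti1, Traf1, AW112010, Ccr7 and Birc2 followed it in rank with 9 to 28 UMIs each in mdx5cv diaphragm, and none of these was called without the large cells. Cpne2, a copine that binds membranes on calcium, ranked among them and was called both ways, at 7.25-fold (3.06 to 18.5) and 4.69-fold (1.84 to 12.9) higher. At the other end S100a4, S100a10, H2-Ab1 and Nme2 had 0 UMIs in mdx5cv diaphragm, and none of them was called without the large cells.

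Beside the calprotectin genes that chose the cells, Cxcl2 and Ccl4 varied most from cell to cell over the pooled libraries. With each cell thinned to 500 UMIs, the ratio of variance to mean over 116 cells was 12.6 for S100a9, 12.02 for S100a8, 9.57 for Cxcl2 and 7.63 for Ccl4, the highest of 138 genes with a mean of at least 0.5 UMIs. These ratios also hold differences between libraries. Within a library the ratio for Cxcl2 was 9.79 in mdx5cv quadriceps, 2.24 in WT quadriceps, 4.51 in mdx5cv diaphragm and 10.2 in WT diaphragm, and it ranked first of these genes in mdx5cv quadriceps and lower in the other libraries. Cxcl2 had a median of 7 UMIs and a highest value of 39 in mdx5cv quadriceps, 7 and 9 in WT quadriceps, 3 and 16 in mdx5cv diaphragm, and 6.5 and 37 in WT diaphragm. It was found in 76.5%, 100%, 76% and 88.9% of thinned cells, against 0.622%, 0%, 0.474% and 0.399% of thinned fibroblast-lineage barcodes. Cells without detected Cxcl2 were thus present in every library but WT quadriceps, which held only 5 cells. Ccl3 was found in 50%, 20%, 28% and 61.1% of thinned cells, and Ccl4 in 32.4%, 0%, 16% and 22.2%. Thinned Nfkbia was found in 54.4% of cells in mdx5cv quadriceps, 20% in WT quadriceps, 36% in mdx5cv diaphragm and 22.2% in WT diaphragm.

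Within a library S100a8 and S100a9 varied together across cells, with a Spearman correlation of 0.79 in mdx5cv quadriceps (68 cells), 0.81 in mdx5cv diaphragm (25 cells) and 0.80 in WT diaphragm (18 cells). Both were used to choose the cells. Il1b and Cxcl2 had correlations of 0.30, 0.50 and 0.25, and Ccl3 and Ccl4 of 0.45, 0.52 and 0.04. Retnlg and Cxcl2 had -0.12, -0.01 and -0.18. These describe cells that share a library and a fixed depth, and no test was made of them.

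**Figure D5:**
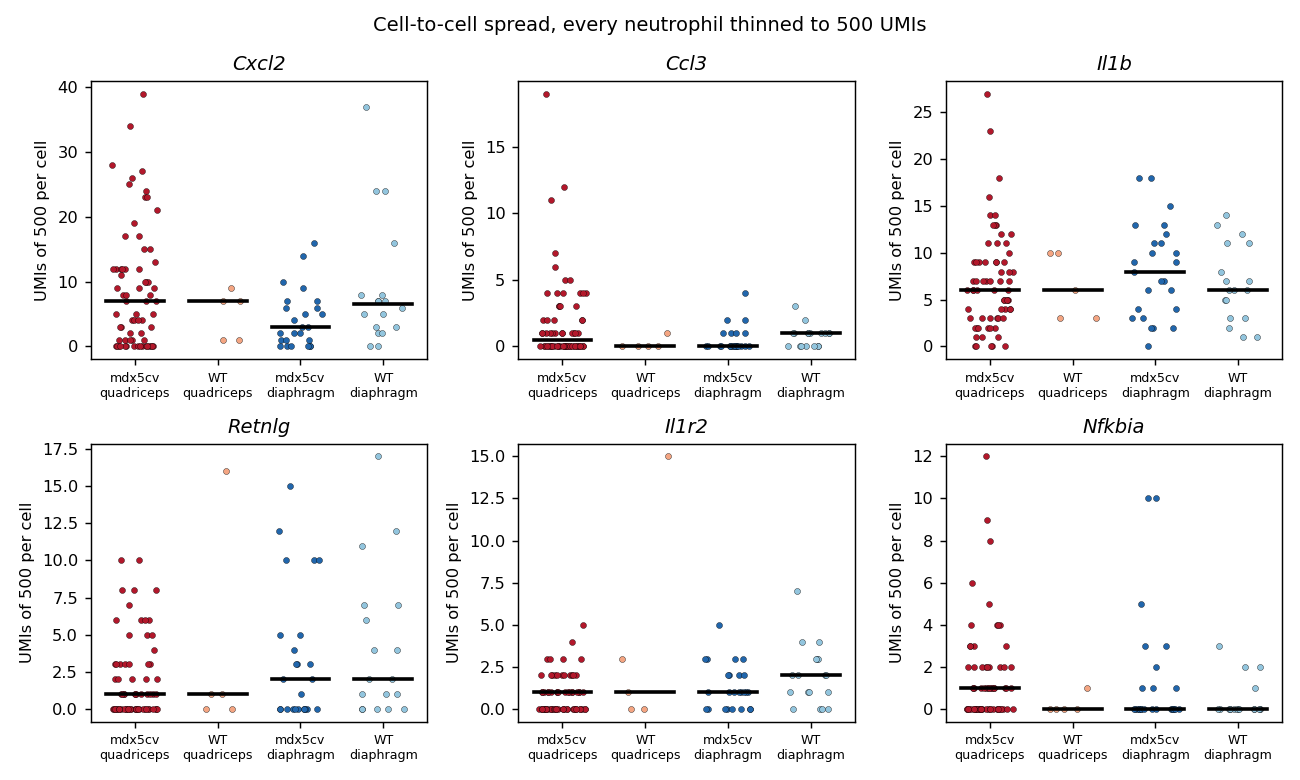
UMIs of 6 genes in each neutrophil after thinning to 500 UMIs, by library, with a line at the median. Cxcl2 and Ccl3 reach their highest values in mdx5cv quadriceps, at 39 and 19 UMIs, and Il1b has medians of 6 to 8 UMIs in all 4 libraries.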

How the data were processed

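The 4 deposited matrices are unfiltered and hold raw UMI counts for 32285 genes. They came from Cell Ranger 5.0.0 on mm10, per the submitters' processing notes, while the file headers name Cell Ranger 4. No source used here names the annotation. No doublet caller was run, and barcodes above the 95th percentile of UMIs were left out in an alternative. Work used Python 3.11.15, numpy 2.4.6, scipy 1.17.1, pandas 2.3.3 and matplotlib 3.10.9.

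Counts were summed over the neutrophils of a library or pool and divided by their total (CPM). Shares have exact Clopper-Pearson intervals and CPM ratios exact conditional intervals, both at 95%. These intervals hold only counting error, and neither cells nor animals add to them. A ratio against 0 UMIs used a floor of 3 UMIs over the group and is written "at least". UMIs count molecules at the 3′ end and were not divided by length. Free RNA was estimated from barcodes with 10 to 100 UMIs, and was 4.16%, 18.2%, 1.94% and 5.38% of neutrophil UMIs in mdx5cv quadriceps, WT quadriceps, mdx5cv diaphragm and WT diaphragm, or 1.98%, 0%, 1.804% and 5.79% without cells above 2000 UMIs. The calls were also run on simulated data. The outcome is not reported here and is no measure of error in these cells.

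The neutrophils, the 16 gene lists (330 of 334 members in the table) and the markers were chosen with earlier results of these data known. Named genes were the 12 genes of the rule, the 25 most abundant (mean CPM of the mdx5cv libraries), the 12 highest and 12 lowest called genes of each comparison by the interval bound nearest 1, and list members. Ranked genes left out those of Y, Xist, haemoglobin, ribosome and mitochondria, predicted and Riken models, and any with over 20% estimated free RNA. Genes called both with and without neutrophils above 2000 UMIs were chosen after their values were seen, as was that limit. Results for some list members are not reported here.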

Additional observations from a re-analysis of the deposited data

Results flagged for a closer look

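For some genes, named below, the mdx5cv to WT ratio pointed in opposite directions in the 2 muscles. Each ratio was at least 2-fold with an interval that excluded 1. The share of all genes that did so is not given, so how many did is not a result. The difference between the muscles was not tested. The log2 ratio of mdx5cv over WT was 2.89 in quadriceps and -3.06 in diaphragm for Thbs1, which encodes the matricellular protein thrombospondin 1. It was 1.66 and -1.64 for Gsn (the actin-severing gelsolin), 1.01 and -1.27 for Zfp36, and 1.04 and -1.60 for Cstb (the protease inhibitor cystatin B). It ran the other way, -2.23 and 1.499, for Asprv1, a retroviral-like aspartic protease, -1.16 and 1.55 for Atp2b1, a plasma membrane calcium pump, and -1.82 and 3.40 for Hspa1b, an inducible heat shock protein. Thbs1 had 999 CPM in mdx5cv quadriceps, 134 in WT quadriceps, 516 in mdx5cv diaphragm and 4312 in WT diaphragm, from 22 of 68, 1 of 5, 8 of 25 and 14 of 18 cells. The WT quadriceps side of each ratio rests on 5 cells, and Cstb had 0 UMIs there, so its quadriceps value is a lower bound. Of the 17 Hspa1b UMIs in mdx5cv diaphragm, 15 came from 1 cell, and 58 of the 99 Cstb UMIs in mdx5cv quadriceps came from 1 cell.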

How the results depend on the processing

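The mdx5cv to WT share ratio kept its direction and its side of 1 under 8 alternatives, at 6.63 to 11.1 in quadriceps and 1.23 to 2.03 in diaphragm. Shares moved in mdx5cv quadriceps to 0.540% with at least 1000 UMIs and 500 genes, 1.58% with at most 5% mitochondrial UMIs and 0.579% with 50 S100a8 and S100a9 UMIs. They moved in mdx5cv diaphragm to 0.189% and 0.629% under the first of these alternatives and the mitochondrial one, and in WT diaphragm to 0.0931% under the first. Genes called higher in mdx5cv were 73 with at most 5% mitochondrial UMIs, 79 with no UMI of the 6 excluding genes, 58 without cells above 2000 UMIs, 32 with thinned cells and 24 with both. Those called lower were 30 with thinned cells, 34 with both and 183 with a minimum of 1 UMI. In mdx5cv diaphragm over mdx5cv quadriceps, higher genes were 50, 63, 43, 22 and 11 under the same 5 settings, 53 with a minimum of 20 UMIs and 148 with 1. Lower genes were 70, 77, 42, 30 and 22 under them, and 86 without barcodes above the 95th percentile of UMIs. Settings without cells above 2000 UMIs were chosen after seeing the data, as was a minimum of 200 UMIs and 100 genes. Thinning keeps fewer UMIs, so fewer genes are tested, and for the others the cause was not tested.

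Of the log2 ratios of named genes, 1500 kept their call or lack of one, 277 lost the call, 34 gained one and 7 called ones reversed. For mdx5cv over WT, Ifitm6 became 0.082 and Lgals3 -0.29 without cells above 2000 UMIs, and Gapdh -0.25 with thinned cells and -0.43 with both. For diaphragm over quadriceps, Ppia became 0.029 with thinned cells, Ldha 0.10 without cells above 2000 UMIs and Bcl2a1b -0.58 with 50 S100a8 and S100a9 UMIs. A change of sign in a gene not called at first was not counted as reversed. Over the alternatives Ldha ran from -2.03 to 1.03 for mdx5cv over WT. Lyz2 ran from -0.35 to 1.05 for diaphragm over quadriceps. Over 15 alternatives Cxcr4 stayed at 1.03 to 1.76 and Il1r2 at -2.00 to -1.24, called in all, and Nfkbia at 0.94 to 1.94, called in 13. With the 2 muscles given equal weight, 103 genes were higher and 60 lower in mdx5cv. No paired analysis was possible with 1 library per group, and a fit with muscle as a block over the 4 libraries was not run. Neither WT library holds 20 neutrophils, so counts of genes called within a muscle are not given. The ratios of single genes within a muscle given above rest on 5 WT cells in quadriceps and 18 in diaphragm.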
